A study of Mus musculus with 2 samples.

Results

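The genes of the cytosolic ribosomal proteins were followed in 2 single cell libraries of the embryonic mouse telencephalon. Members were chosen by symbol: Rpl or Rps with a number and at most 1 of the final letters a, x, y or l, together with Rplp0, Rplp1, Rplp2 and Rpsa, and without pseudogenes marked -ps and without the kinases whose names begin with Rps6k. The rule used no measured value. It took 81 of the 28001 features listed for the septal explants and 80 of the 32286 listed for the telencephalic vesicle. The single difference was Rpl6l, which only the septal feature list held and which the annotation used here classes as a processed pseudogene, although its symbol passes the rule. By symbol, 50 of the 81 members were counted with the large subunit, Rpl6l among them, and 31 with the small subunit. Every listed member but 3 gave at least 50 UMIs in progenitors and neurons together in each library, which tells of detection and not of the label. The exceptions were Rpl3l, Rpl10l and Rpl39l.

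The septal library pooled explants from 8 E11.5 embryos of genotype PGKCre;Rosa26YFP and 4 E12.5 embryos of genotype Dbx1Cre;Rosa26tdTomato, each kind from 2 litters. PGKCre acts broadly, whereas Dbx1Cre marks only lineages that expressed Dbx1, so that the reporters tell the embryo kinds apart only in part. The other library held the telencephalic vesicles of 3 WT embryos from 2 litters, labelled E12 and given as E11.5 to E12 in the methods. All embryos were C57BL/6J according to the labels, which call both samples wild-type, and no barcode was tied to an embryo. The data are unique molecular identifiers (UMIs), each of which stands for 1 captured transcript, counted by gene and barcode. The septal table held 5827 barcodes with a median of 12722 UMIs and the one for the telencephalic vesicle 14283 with a median of 8503, and 1 barcode sequence occurred in both. After filters on mitochondrial share and doublets, 5207 and 11227 cells were clustered without any ribosomal protein gene, and classes were named from marker genes. They are therefore AP-like, BP-like and neuron-like cells, written below as APs (apical progenitors), BPs (basal progenitors) and neurons. The summed neuronal markers stood at 726 CPM (UMIs per 1000000 UMIs of a class) in septal APs and 13667 CPM in septal neurons, and at 761 and 10196 CPM in telencephalic APs and neurons. The AP markers went from 3584 CPM in APs to 1084 CPM in neurons in the septal library and from 3300 to 712 CPM in the other. There was 1 library per tissue, so that no difference below has a replicate check and no p-value is given. The intervals are exact 95% intervals that cover counting error only. Because the chemistry and the counting software differed, levels are set side by side and not compared between libraries.

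Ribosomal proteins assemble with ribosomal RNA into the small subunit, which decodes the messenger RNA, and the large subunit, which joins amino acids. Their messengers are among the most abundant of a growing cell. These messengers mostly begin with a run of pyrimidines, the terminal oligopyrimidine start, through which the mTOR pathway adjusts their translation. Progenitors of the ventricular zone grow and divide, while newborn neurons have left the cycle, and ribosome production is commonly highest in dividing cells. The counts here are of messenger RNA and say nothing of how many ribosomes a cell held.

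The starts of the genes are shown because the members shared features there that the rule did not use. Of the members, 60 had a RefSeq window of 250 bases before and 50 after an annotated start in build GRCm38.p6. The letters CGGAAG, searched on both strands and known as the core bound by ETS factors, occurred in the windows of 41 of the 60 members (68.3%) and of 5075 of all 27025 genes with a window (18.8%). A run of at least 6 consecutive letters that are all C or T, searched on the gene's strand in the 30 bases around the start, occurred in 37 of the 60 members (61.7%) and in 8833 of all genes (32.7%). A gene with several windows counted when any of them held the letters. Each stretch printed here holds the 15 bases before the annotated start and the first 15 bases after it, 5′ to 3′ on the gene's strand, for the members at either end of the neuron to AP ratios described later that had a window. Capitals mark the longest run of C and T where it reached 4 letters.
Rps2: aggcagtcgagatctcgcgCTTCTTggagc
Rpl12: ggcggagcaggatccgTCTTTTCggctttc
Rpsa: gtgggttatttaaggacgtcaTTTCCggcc
Rps27l: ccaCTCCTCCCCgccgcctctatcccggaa
Rpl15: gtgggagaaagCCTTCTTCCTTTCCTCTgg
Rps27: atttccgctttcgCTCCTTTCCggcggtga
Rpl10: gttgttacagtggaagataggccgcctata
Rpl27: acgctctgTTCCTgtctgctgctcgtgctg
Rpl37a: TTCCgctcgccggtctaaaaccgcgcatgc
Rps26: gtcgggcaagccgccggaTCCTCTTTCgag
They lie at Rps2 chr17:24720048-24720077 (plus strand), Rpl12 chr2:32961697-32961726 (plus strand), Rpsa chr9:120127751-120127780 (plus strand), Rps27l chr9:66946071-66946100 (plus strand), Rpl15 chr14:18270972-18271001 (minus strand), Rps27 chr3:90213634-90213663 (minus strand), Rpl10 chrX:74270801-74270830 (plus strand), Rpl27 chr11:101442230-101442259 (plus strand), Rpl37a chr1:72711245-72711274 (plus strand), Rps26 chr10:128626492-128626521 (minus strand). Near the low end of the ratios, Rps2, Rpl12, Rpsa and Rps27l had runs of 6, 7, 5 and 9 letters, that of Rps27l wholly before the annotated start. Rps27l had 2 windows, and the one printed was chosen for the longest run. Among the members that differed least, Rps27 and Rps26 had runs of 9 letters each, Rpl27 of 5 and Rpl37a of 4. Those of Rpl27 and Rpl37a also lay wholly before the annotated start. Rpl15 had the longest run among these members, 17 letters, and Rpl10, among the members that differed least, had none of 4. Members with a run of at least 6 and members without one had like median neuron to AP ratios, 0.645 against 0.649 in the septal library and 0.720 against 0.730 in the other. The medians for members with and without CGGAAG were 0.656 and 0.624 in the septal library and 0.726 and 0.710 in the other. The letters are a description of annotated starts and not of mapped ones. By the GENCODE M21 annotation, the 81 members lie on 19 chromosomes, and 29 of them hold at least 1 small nucleolar RNA gene on their strand (56 in all). In the same annotation, 293 pseudogenes are named for a ribosomal protein gene with the suffix -ps.

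Neurons devoted a smaller share of their transcripts to ribosomal proteins than APs did, in both libraries. In the septal explants the members took 21.6% of all UMIs in 3379 APs, 19.7% in 708 BPs and 13.6% in 1057 neurons. In the telencephalic vesicle they took 16.9% in 6331 APs, 15.3% in 1298 BPs and 11.8% in 1524 neurons. The neuron to AP ratio of the share was thus 0.628 (0.627 to 0.629) in the septal and 0.700 (0.699 to 0.701) in the telencephalic library, while the BP to AP ratio was 0.911 and 0.908. The median over cells was 21.5% in septal APs against 13.7% in septal neurons, and 17.8% against 12.3% in the telencephalic library. Erythroid markers summed to 6419 CPM in telencephalic neurons against 2334 CPM in APs, and to 604 and 564 CPM in the septal library, and the ratio was 0.707 and 0.630 with globin and mitochondrial genes left out. Single cells overlapped. Between the lowest and the highest 10% of cells, septal APs ran from 18.7 to 25.1% and septal neurons from 9.68 to 17.8%, whereas telencephalic APs ran from 14.0 to 21.9% and neurons from 8.15 to 16.6%.

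**Figure D1:**
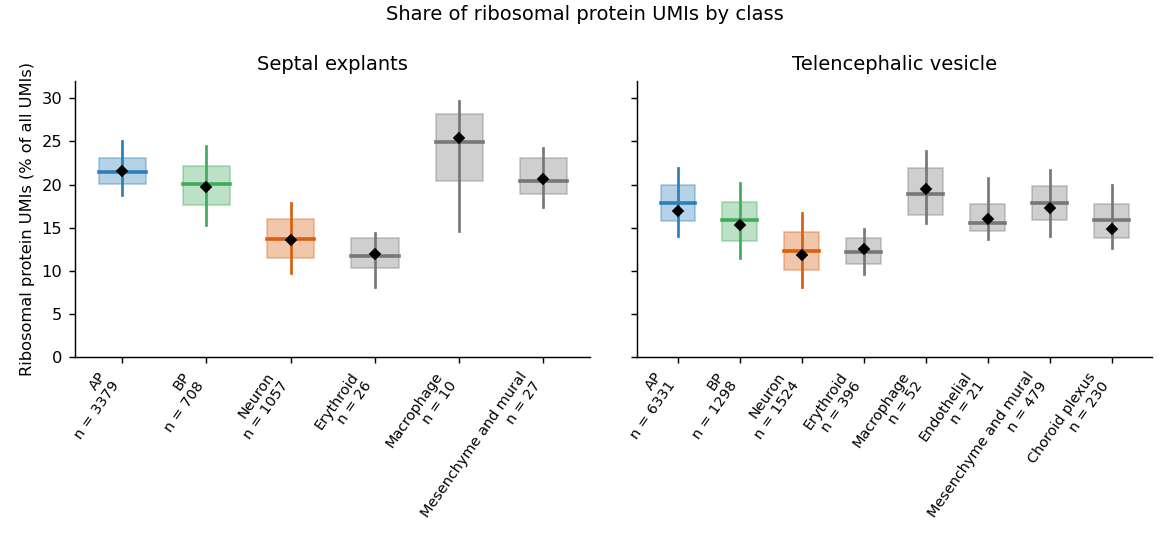
Share of ribosomal protein UMIs among all UMIs of a cell (y axis, %) by class, with the number of cells under each class, in either library. Boxes span the middle quartiles over cells, the bar is the median, whiskers reach the lowest and highest 10% of cells, and the black diamond is the share of the summed UMIs. Neurons lie under APs in both libraries, with erythroid cells at a like low level.

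In counts per cell, an average septal AP held 3299 UMIs of members and 11966 of other genes, and an average septal neuron 1611 and 10264. In the telencephalic library the averages were 3252 and 16017 in APs and 877 and 6546 in neurons. Less RNA per cell, fewer captured molecules and fewer ribosomal protein messengers cannot be told apart in such counts, and the share removes only what all genes have in common.

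Both subunits took part. Large subunit members went from 11.7% of UMIs in septal APs to 7.41% in neurons and small subunit members from 9.86 to 6.16%. In the telencephalic library the large subunit went from 9.17 to 6.55% and the small from 7.71 to 5.26%. The ratio of large to small subunit UMIs lay at 1.19 in the APs of both libraries and at 1.203 and 1.246 in septal and telencephalic neurons, so that the pool kept nearly the same balance of subunits.

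The separation held cluster by cluster with 1 exception. In the septal library the 15 AP clusters ranged from 19.7 to 27.4% and the 7 neuron clusters from 11.99 to 16.2%, with no overlap. The AP cluster at 27.4% was a shallow one, 125 cells with a median of 5334 UMIs, and the next highest stood at 24.2%. The 5 BP clusters reached across, from 16.7 to 22.1%. Among septal neurons cells with Cajal-Retzius markers stood at 12.8%, those with GABAergic markers at 13.6% and those with glutamatergic markers at 14.8%. The 13 AP clusters of the telencephalic library ranged from 15.3 to 21.9% and 5 of the 6 neuron clusters from 9.88 to 13.3%. The sixth neuron cluster, 60 cells led by Nefl and Calb2 with a median of only 1220 UMIs, stood at 23.6%. APs summed by region lay closer together: septal-marker, pallial and subpallial APs of the septal library held 22.5, 21.5 and 21.4%, those of the telencephalic library 17.1, 17.4 and 16.6%. Clusters within a region differed more. Telencephalic pallial AP clusters ran from 15.3 to 21.9% and subpallial ones from 15.3 to 21.4%. The hem held 20.4 and 15.5%, and the choroid plexus cluster of the telencephalic library 14.9%.

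To place the difference along differentiation cell by cell, the log2 ratio of neuronal to AP marker UMIs gave an order of neural cells, which was cut into 10 bins of equal size. The cells were those of the AP, BP and neuron clusters, and the markers were also used to name these clusters. The order is therefore not independent of the classes. The septal share was level over the first 7 bins and lower in the last 3. The telencephalic share was already lower in the seventh bin (16.4%) than in the first (17.4%), and fell most after the eighth. The last bins held the cells with the most neuronal markers. In the septal library the share lay between 21.5 and 21.8% in the first 7 bins, then at 18.3, 15.5 and 12.2%. The telencephalic values lay between 16.4 and 17.4% in the first 7 bins, then at 16.0, 13.6 and 10.7%. The summed BP markers were highest in the eighth bin of both libraries, at 4336 and 2479 CPM. The last bin against the first gave 0.565 in the septal and 0.615 in the telencephalic library.

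**Figure D2:**
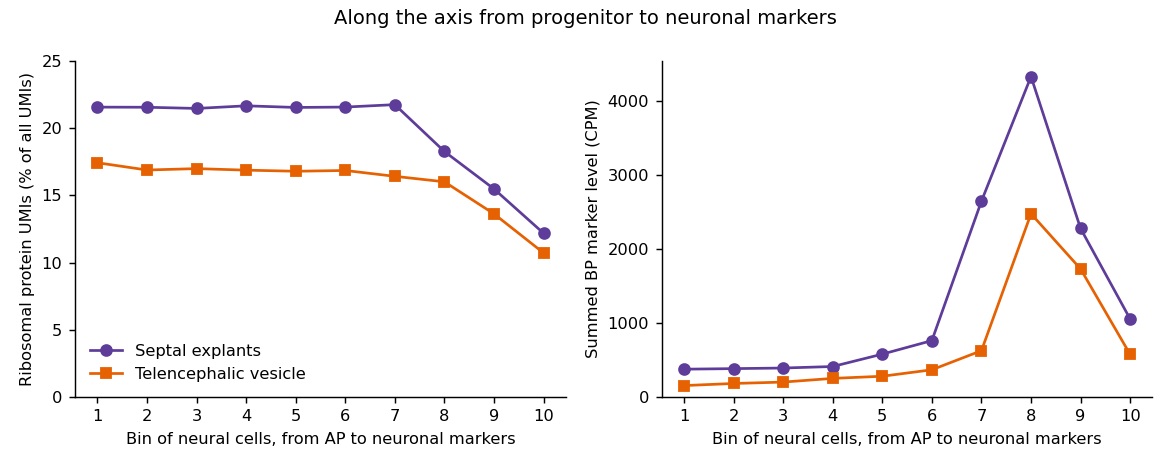
Neural cells in 10 bins of equal size from the highest AP to the highest neuronal marker ratio (x axis). The left panel plots the share of ribosomal protein UMIs (%) and the right panel the summed BP markers (CPM) in both libraries. The septal share is level over the first 7 bins, where the telencephalic share goes from 17.4 to 16.4%. Both are lowest in the last bin, at 12.2% (septal) and 10.7% (telencephalic), past the peak of BP markers in the eighth bin.

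Depth moved with the share and was therefore held alike. Neural cells of each library were cut into 5 groups by their UMIs. The shallowest group had the highest share in all 3 classes of both libraries: telencephalic APs held 20.1% in the shallowest and 16.1% in the deepest group, and septal APs 23.6 and 21.5%. Within the groups, the neuron to AP ratio lay between 0.589 and 0.649 in the septal and between 0.568 and 0.674 in the telencephalic library. The neurons were thus under the APs at every depth compared.

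**Figure D3:**
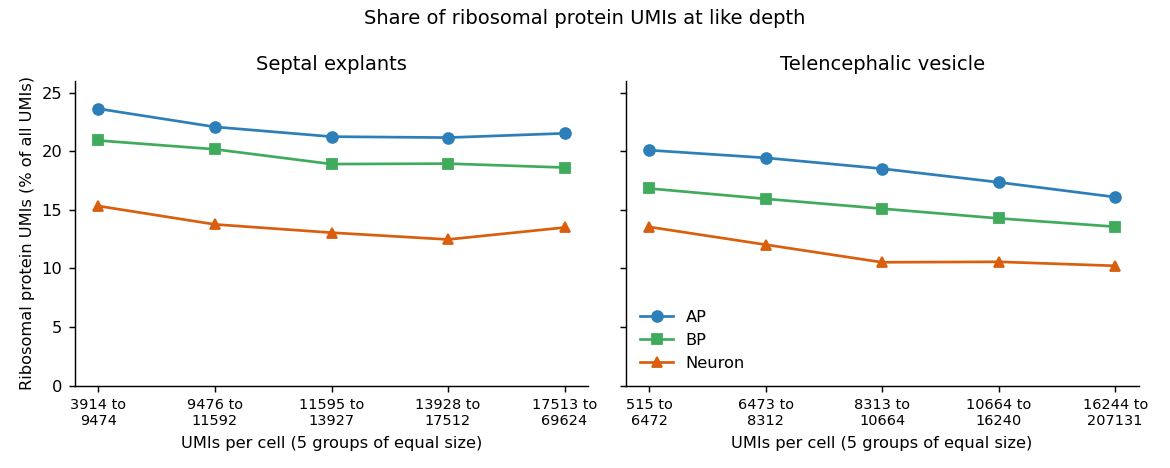
Share of ribosomal protein UMIs (y axis, %) of APs, BPs and neurons in 5 groups of neural cells cut by UMIs per cell (x axis, range of UMIs of each group), in either library. In all 5 groups of both libraries APs lie highest, BPs between and neurons lowest.

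Gene by gene, the lower level in neurons was shared by nearly all members. A feature was called when its CPM in 1 class was at most 0.8 of that in the other, among features with at least 50 UMIs in both classes together. In the septal library 78 of the 81 members qualified, of which 75 were lower in neurons and 0 higher, against 34.3% of all 12684 qualifying features lower and 38.1% higher. For the telencephalic vesicle 77 of the 80 members qualified, of which 57 were lower and 0 higher, against 42.3% of 15682 features lower and 32.7% higher. With a fold of 1.5 for a call the telencephalic count was 23 of 77 (29.9%), under the 33.0% of all features, and the septal count 46 of 78, above 26.1%. The median neuron to AP ratio of the members was 0.647 in the septal library, where that of all features was 1.04, and 0.726 in the telencephalic library, where it was 0.911. All 78 septal members had an interval of the ratio wholly under 1, and 75 of the 77 in the telencephalic library did. Among the 76 members with at least 500 UMIs in both libraries, 56 were called lower in both, 17 only in the septal and 0 only in the telencephalic library, and 3 in neither. The ratios ranked the members alike: Spearman's rho between the libraries was 0.904 over these 76 genes, which are not independent, whereas rho for their CPM in APs was 0.557.

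**Figure D4:**
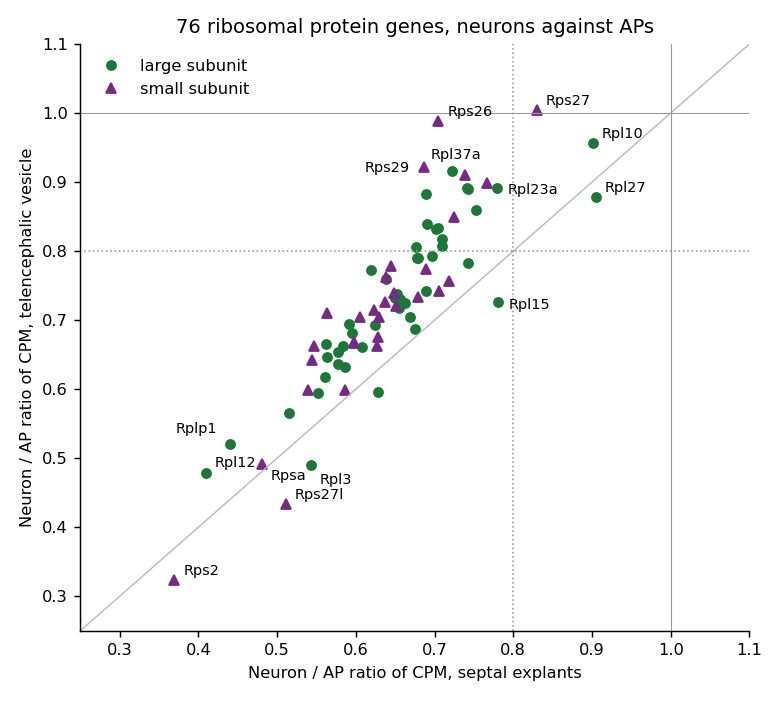
Neuron to AP ratio of CPM for 76 members in the septal (x axis) and telencephalic library (y axis). Circles are large and triangles small subunit genes, dotted lines mark 0.8, the limit for a call, solid lines mark equal levels, and the grey diagonal marks equal ratios. Rps2 lies lowest in both libraries, at 0.369 and 0.323.

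The member with the lowest ratio in both libraries was Rps2, a small subunit protein near the messenger entry site. It stood at 2606 CPM in APs, 1849 in BPs and 963 in neurons of the septal library, a neuron to AP ratio of 0.369 (0.362 to 0.376). Its telencephalic levels were 5139, 3334 and 1661 CPM, a ratio of 0.323 (0.319 to 0.328). Its level was thus lower already in BPs, at 0.709 and 0.649 of the AP level.

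The other members at the low end were Rpl12, Rplp1, Rpsa, Rps27l and Rpl3. Rpl12, which sits at the base of the stalk of the large subunit, went from 1864 CPM in septal APs to 764 in neurons (0.410) and from 2364 to 1133 CPM in the telencephalic library (0.479). Rpsa, a small subunit protein also known as the precursor of a laminin receptor, went from 3616 to 1738 CPM (0.481) and from 4692 to 2306 CPM (0.492). All of these lay under the median of the members in both libraries. Rpl3, which reaches towards the peptidyl transferase centre, had ratios of 0.543 and 0.491.

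The 3 stalk proteins, which recruit the elongation factors to the ribosome, did not share 1 ratio. Rplp1 went from 2337 to 1029 CPM in the septal library (0.440) and from 2353 to 1227 CPM in the telencephalic library (0.521). Its partner Rplp2 had ratios of 0.608 and 0.661, and Rplp0, which anchors both, 0.564 and 0.646. In either library the intervals of Rplp1 and Rplp2 were apart, 0.432 to 0.448 against 0.599 to 0.617 in the septal one.

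At the other end, 5 members per library differed least. In the septal library these were Rpl27 (0.905), Rpl10 (0.901), Rps27 (0.830), Rpl15 (0.780) and Rpl23a (0.779). In the telencephalic library they were Rps27 (1.004), Rps26 (0.988), Rpl10 (0.956), Rps29 (0.922) and Rpl37a (0.915). Rpl10, a late joining protein of the large subunit encoded on the X chromosome, and Rps27 were thus among them in both. Rps26, which lies where the messenger leaves the small subunit, went from 1256 CPM in telencephalic APs to 1464 in BPs and 1241 in neurons, but from 1342 to 1258 and 945 CPM in the septal library, a ratio of 0.705. The intervals of Rps27 (0.980 to 1.03) and Rps26 (0.971 to 1.01) in the telencephalic library included 1.

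The most abundant members of septal APs were Rpl41 (5967 CPM), which encodes the shortest of the proteins, Rpl32 (5438), Rpl13a (5262), Rps19 (5234) and Rps27a (4930). Among the most abundant of telencephalic APs were Rpl13 (5155 CPM), Rps2 (5139), Rpsa (4692) and Rps27a (4093). A 3′ library counts about 1 tag per molecule, so these levels are not scaled by length. The pool was spread widely, as the 10 most abundant members gave 23.6% of all member UMIs in septal APs and 24.4% in telencephalic APs. Rps27a, made as a fusion with ubiquitin, had ratios of 0.586 and 0.599.

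Some members are known for a role of their own. Rpl5 and Rpl11, which bind the 5S ribosomal RNA and can restrain Mdm2, had ratios of 0.624 and 0.649 in the septal library and 0.694 and 0.732 in the telencephalic library. Rps6, the substrate of the S6 kinases, had 0.626 and 0.663, Rps25, which some viral and cellular messengers need for internal initiation, 0.598 and 0.667, and Rpl38, known for its part in Hox messenger translation, 0.697 and 0.792.

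Among the paralogues that the rule took, Rps27l was the most abundant, and it stood apart from its parent. Rps27l went from 771 CPM in septal APs to 394 in neurons (0.511, 0.496 to 0.526) and from 392 to 170 CPM in the telencephalic library (0.433, 0.414 to 0.453), whereas Rps27 had 0.830 (0.746 to 0.922) and 1.004. Rpl6l stood at 173 CPM in septal APs and 112 in neurons, a ratio of 0.645 against 0.675 for Rpl6, from which reads of a processed copy may not be separable. Rpl3l gave 1 UMI in septal APs and 8 in telencephalic APs, with 0 in the neurons of either, and Rpl10l gave 7 and 0 UMIs in the APs. Their intervals spanned 1 or had no limit. Rpl39l, a copy known from the testis, had neuron to AP ratios of 8.22 and 3.59. They rest on under 50 UMIs in each library, with 0.0388 CPM in septal and 0.0492 CPM in telencephalic APs. It gave 6 UMIs in telencephalic APs and 13 in the far fewer non-neural cells, a non-neural to AP ratio of 23.6 (8.36 to 75.6), but 0 in septal non-neural cells. Rps4x, the X-linked member without a listed l copy here, had neuron to AP ratios of 0.629 and 0.705.

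The composition of the pool is given by the share of each member among all member UMIs, which does not depend on other genes. Over clusters of at least 50 cells, 27 in the septal and 26 in the telencephalic library, the coefficient of variation of this share had a median of 6.44 and 7.57% over 77 members each. It was under 10% for 63 and 55 members. Rps2 varied most in both, by 27.5 and 28.1%, from 0.617% of the pool in the septal cluster with Cajal-Retzius markers to 1.72% in a pallial AP cluster, and from 1.34 to 3.47% in the telencephalic library.

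A few members took a very different part of the pool in the 2 libraries. In 8 of 77 members compared, the share among member UMIs in APs was at least 5 times higher in the telencephalic than in the septal library, and in 0 it was at least 5 times lower. The 8, which were chosen after their values were seen, were Rps12, Rpl27, Rpl10, Rpl9, Rps27, Rpl23a, Rpl15 and Rpl6. Rps12 stood at 5.20 CPM in septal and 2422 CPM in telencephalic APs, Rpl27 at 43.7 and 1422, Rpl10 at 54.0 and 1382 and Rpl9 at 152 and 2895. The septal table also listed 16 features named as ribosomal protein pseudogenes, with 0.423% of the UMIs of these and the members together, and the one for the telencephalic vesicle 5, with 0.0430%. Over the 26 telencephalic clusters of at least 50 cells, the lowest share of the pool was 1.20% for Rps12 and 1.54% for Rpl9. For Rpl27 the lowest was 0.802%, in a cluster of septal-marker APs, where the APs of the septal library held 0.0202%. Kit, software and feature list differed together and cannot be told apart, and the part of tissue was not tested. Of the 5 members with the highest septal ratios, all are among these 8, so that their septal values rest on a small part of what the other library counted.

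Over all deposited barcodes 423 septal and 1355 telencephalic cells were named non-neural, and 192 and 950 at Leiden resolution 2.5. With the filters and clusters used here, non-neural cells were few in the septal library, 63, and 948 in the telencephalic library. Summed, their members took 17.1% of UMIs in the septal library, a non-neural to AP ratio of 0.793 (0.790 to 0.796), and 16.2% in the telencephalic library, a ratio of 0.959 (0.957 to 0.960). Of the qualifying members, 46 of 78 (59.0%) were called lower and 0 higher in the septal library, where 65.7% of all 12258 features were lower and 15.9% higher, a share near that of the members. Of the 77 telencephalic members, 0 were lower and 0 higher, where 51.0% of 15897 features were lower and 21.9% higher. The sums hid unlike classes.

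Erythroid cells had the low share and macrophages the high one. In 26 septal erythroid cells the members took 11.99% of UMIs, in 396 telencephalic erythroid cells 12.6%. Globin messengers took 52.1 and 54.8% of the UMIs of these cells. Without globin and mitochondrial UMIs the members took 25.5 and 29.3%, against 22.1 and 17.3% in APs. The order of erythroid cells and APs was thus reversed by the denominator, and the ratio of the sums went to 1.08 and 1.12. Without the erythroid cells the ratio was 1.04 and 1.03 with the denominator as it was, and 2 of 78 septal members were lower and 2 higher, where 42.4% of all features were lower. In the septal library 178 barcodes under the mitochondrial limit were left out, in which globins took 50.5% of UMIs and the members 12.5%. In 10 septal and 52 telencephalic macrophages, the members took 25.4 and 19.5%, above the 21.6 and 16.9% of APs. The leading genes of the septal cluster held the platelet genes Ppbp and Gp9 beside C1qb and Tyrobp, so that its name is uncertain. Its single cells ran from 14.2 to 31.0%. Mesenchymal and mural cells held 20.6% (27 cells) and 17.2% (479 cells), close to APs, and 21 endothelial cells 16.0%.

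**Figure D5:**
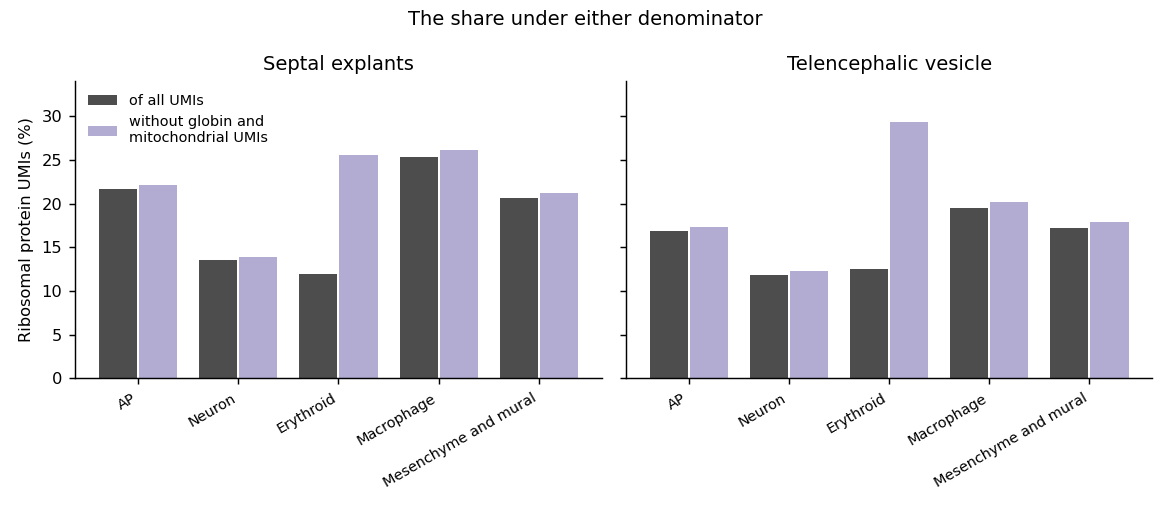
Share of ribosomal protein UMIs (y axis, %) in 5 classes of either library, out of all UMIs (dark bars) and out of UMIs without globin and mitochondrial genes (light bars). The bars differ little except in erythroid cells, which go from 11.99 to 25.5% (septal) and from 12.6 to 29.3% (telencephalic).

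Named members differed between these classes in CPM. Rplp0 had the highest ratio of erythroid cells to APs in both libraries, 0.885 and 1.05, where the median member had 0.534 and 0.728. Rps2 was lowest in mesenchymal cells, at 0.589 and 0.784 of APs, where the medians were 0.957 and 1.03. In macrophages the medians were 1.20 and 1.16, with Rps27 lowest at 0.808 and 0.918. These rankings by single class took members with at least 500 UMIs in APs, whatever their count in the other class. Rps27 stood at 40.4 CPM in septal APs, and the 10 septal macrophages held 275653 UMIs of all genes. Its septal macrophage value therefore rests on few UMIs. For the sum of the non-neural cells, only members with at least 500 UMIs in it and APs together were ranked. Of these, the 3 lowest were Rps2 (0.639), Rpl29 (0.635) and Rpl5 (0.673) in the septal and Rps2 (0.801), Rps9 (0.831) and Rpl5 (0.849) in the telencephalic library. The 3 highest were Rplp1 (0.990), Rpl39 (0.955) and Rplp0 (0.948) in the septal and Rps26 (1.17), Rpl21 (1.17) and Rpl28 (1.16) in the telencephalic library.

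Among APs, cells with more G2/M transcripts had lower shares, whereas S phase transcripts gave no such order in the telencephalic library. When septal APs were split into 3 equal groups by the share of 50 G2/M genes, the members took 23.0, 21.6 and 20.6% from the lowest to the highest group, and 18.0, 16.8 and 16.2% in the telencephalic library. The median depth of these groups went from 11817 to 16153 UMIs and from 8813 to 12521 UMIs, and its part was not tested. By 43 S phase genes the groups held 22.1, 21.4 and 21.3%, and 17.2, 16.7 and 16.9%. The reporters of the septal library gave a comparison within 1 library. APs with at least 3 YFP UMIs and no tdTomato held 21.5% (1942 cells) and APs with any tdTomato UMI and no YFP 21.9% (153 cells). For BPs the values were 19.2% (345 cells) and 21.2% (42 cells), the widest gap of the 3 classes, and for neurons 13.6% (571 cells) and 13.1% (88 cells). A single tdTomato UMI can come from free RNA, and the share of cells that carry one for that reason was not tested. Age and Dbx1 lineage, which the reporters mark together, cannot be told apart.

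Ribosomal genes that the rule left out were mostly lower in neurons as well. Of Rps3a1, Rpl36al, Rpl22l1, Rpl7l1, Fau and Rack1 (listed as Gnb2l1 in the septal table), 6 were lower in neurons of the septal and 5 of the telencephalic library, and 0 were higher. Rpl22l1, the paralogue of Rpl22, went from 1645 to 667 CPM (0.405) and from 880 to 339 CPM (0.385). The exception was Fau, made as a fusion with a ubiquitin-like protein, which had a ratio of 0.787 in the septal and 0.926 in the telencephalic library.

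Genes that build ribosomes were lower in neurons too. Of 22 ribosome biogenesis genes, 17 were lower and 2 higher in septal neurons, with a median ratio of 0.490, and 18 and 2 in telencephalic neurons, with a median of 0.384, where 34.3 and 42.3% of all features were lower and 38.1 and 32.7% higher. Nucleolin (Ncl) had ratios of 0.426 and 0.345, nucleophosmin (Npm1) 0.410 and 0.376, and dyskerin (Dkc1), which modifies ribosomal RNA, 0.247 and 0.206. The 2 that were higher in both were Myc, with 3.66 CPM in septal APs and 27.8 in neurons and 2.82 and 7.51 CPM in the telencephalic library, and Rrn3, a factor of RNA polymerase I, with ratios of 2.45 and 1.63. Mycn had 0.496 and 0.549.

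Other lists of the translation machinery are given beside the share of all features, 34.3% lower in septal and 42.3% in telencephalic neurons. Of 6 elongation factors 3 were lower and 1 higher in each library. Eef1d had ratios of 0.283 and 0.237, while Eef1a1, the most abundant at 8010 CPM in septal APs, had 0.815 and 0.893. The neuronal form Eef1a2 went from 12 UMIs (0.233 CPM) in septal APs to 102 UMIs (8.13 CPM) in neurons, and from 0.287 to 12.3 CPM in the telencephalic library. Of 9 other transcripts known for an oligopyrimidine start, 3 were lower and 0 higher in septal neurons, and 4 and 0 in telencephalic neurons, with medians of 0.837 and 0.806. The lowest of the 9 in both libraries was Npm1 (0.410 and 0.376), which is also counted among the ribosome biogenesis genes above. Genes named Eif2 to Eif6, which include regulators of the initiation factors, were lower in 22 of 48 and higher in 6 in the septal library, and in 31 of 49 and 3 in the other, with medians of 0.859 and 0.747. For the proteins of the mitochondrial ribosome 35 of 76 were lower and 1 higher, and 41 of 78 and 4, with medians of 0.818 and 0.778. Of the S6 kinases, 4 of 8 were lower and 3 higher in septal neurons, and 3 of 7 and 2 in telencephalic neurons.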

How the data were processed

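Single cell suspensions of pooled tissue were run on the 10x Genomics Chromium controller, with the Single Cell 3′ kit v2 for the septal explants (about 10000 cells loaded) and v3.1 for the telencephalic vesicle (about 20000). Per the submitters' processing notes, the authors used Cell Ranger 2.1.1 for the first and 7.1.0 for the second library, with the mm10 genome. The methods give default parameters for the septal library, and the setting for intronic reads of the telencephalic library is not given in the sources used here. The authors deposited raw counts, that is, UMI counts per gene and barcode with no normalisation. Reads of ribosomal protein genes can match pseudogenes equally well, and how such reads are treated moves the counts.

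The members and lists were chosen with earlier results of these data known, although the symbol rule for the members used no measured value. Barcodes within 3 median absolute deviations of the median mitochondrial share were kept (5444 and 12471). Scrublet's automatic threshold marked 5 septal cells (0.0918%) and 657 telencephalic cells (5.27%), and in its place the expected share of 0.8% per 1000 cells with the highest scores was removed (237 and 1244). Counts were scaled per cell, log-transformed and clustered on 2000 variable genes, without ribosomal protein, cell cycle, mitochondrial, reporter or sex-linked genes and without Dbx1 and Pcdh8 (30 principal components, 15 neighbours, Leiden resolution 1.5, scanpy 1.11.5). A cluster was named from at least 3 markers of a class, each in 5% of its cells and 1.5-fold above the clusters lowest for it, and shallow clusters whose leading genes held no such marker stayed unnamed. The doublet removal and these naming thresholds were set after the data were seen. UMIs were then summed by class in each library. Shares have Clopper-Pearson intervals, levels Poisson intervals and ratios conditional binomial intervals (scipy 1.17.1). A member was named for the 5 highest CPM in APs, the 5 lowest and highest neuron to AP ratios and the 3 lowest and highest non-neural to AP ratios in each library among members with at least 500 UMIs, or for a known role or paralogue, and some genes that this rule names are not reported here. The ratio code was tested on simulated data. Sequences are those of RefSeq for GRCm38.p6 and gene positions those of GENCODE M21.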

Additional observations from a re-analysis of the deposited data

Results flagged for a closer look

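5 members named for their non-neural level had non-neural to AP ratios on opposite sides of 1 in the libraries, each with a counting interval apart from 1. All 78 qualifying septal members lay under 1, and 21 of the 77 telencephalic members lay above 1. Opposite sides are therefore not particular to these 5, which were named from the extremes of the same ratio. The difference between the libraries was not tested, as each is 1 library and the classes differ in makeup. Rps26 had 0.766 in the septal and 1.17 in the telencephalic library, Rpl21 0.837 and 1.17, Rpl28 0.926 and 1.16, Rpl39 0.955 and 1.11, and Rplp0 0.948 and 1.03. Without globin and mitochondrial UMIs in the denominator all 5 lay above 1 in both libraries, so that the opposite directions were gone, with Rps26 lowest in the septal library at 1.05. Erythroid cells gave 51.0% of the UMIs of the septal non-neural cells and 25.2% of those of the telencephalic ones.

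In 896 cells of the telencephalic library that no class took, with a median of 1055 UMIs, ribosomal proteins took 25.1% of UMIs, where APs held 16.9%. The 2 clusters of these cells lay on either side of APs, at 26.6% in 777 cells led by AY036118 and Gm42418 and at 12.2% in 119 cells.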

How the results depend on the processing

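The neuron to AP ratio of the share stayed under 1 in every alternative run. For the septal (0.628) and telencephalic (0.700) libraries it was 0.630 and 0.707 without mitochondrial and globin genes, 0.659 and 0.746 over all deposited barcodes, 0.635 and 0.750 with doublets kept, 0.635 and 0.683 at Leiden resolution 0.8, 0.643 and 0.709 at 2.5, 0.601 and 0.697 with another seed, 0.636 and 0.687 as medians over cells, and 0.626 and 0.701 with the ribosomal genes outside the rule. With the last and first 3 bins in place of the classes, over cells of the same clusters, it was 0.705 and 0.791. Without clusters under 50% of the library's median depth, an alternative chosen after seeing the data, it was 0.631 and 0.695. With 5 bins the last against the first gave 0.639 and 0.707 in place of 0.565 and 0.615. The non-neural to AP ratio was not stable. It went from 0.793 (septal) and 0.959 (telencephalic) to 1.08 and 1.12 without mitochondrial and globin genes, and to 1.04 and 1.03 without erythroid cells, also chosen after seeing the data. With doublets kept it was 0.980 (220 cells in place of 63) and 1.004 (2080 in place of 948). Over all barcodes it was 0.813 in the septal library, at resolution 0.8 0.962 in the telencephalic, at 2.5 0.971 and 0.956, as medians over cells 0.824 and 0.863, and without shallow clusters 0.796 in the septal library, while the telencephalic non-neural and AP clusters held none so shallow.

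With a fold of 1.5 for a call, the members lower in neurons were 46 (septal, background 26.1%) and 23 (telencephalic, background 33.0%, so under it), in place of 75 and 57. The other alternatives gave 74 to 75 (background 32.1 to 34.6%) and 50 to 65 (background 36.2 to 42.7%). With no minimum of UMIs, 1 of 80 septal and 1 of 78 telencephalic members was higher in neurons. The members lower in non-neural cells of the septal library went from 46 to 3 with that fold (background 52.0%), 1 without mitochondrial and globin genes (42.1%, with the median of all features moved by 0.45 on the log2 scale), 0 with doublets kept (64.5%) and 2 without erythroid cells (42.4%). In the telencephalic library thinning to 5000 UMIs per cell gave 1 in place of 0 (background 54.0%). Thinning left out 85 of the septal APs and 4 of the neurons, and 240 and 247 in the telencephalic library. No paired analysis was possible because there is 1 library per tissue. The limits are those of 1 library per tissue, classes rebuilt from markers, pooled embryos and multi-mapping to pseudogenes, none of which counting intervals cover.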

Other observations

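Barcodes above the mitochondrial limit entered no comparison. In 205 such septal barcodes the members took 18.7% of UMIs at a median of 7325 UMIs, and in 1812 telencephalic barcodes 12.3% at a median of 1353 UMIs.

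The median neuron to AP ratio of members that hold a small nucleolar RNA gene was 0.633 in the septal library and 0.686 in the telencephalic library, and 0.650 and 0.736 for those that hold none.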
